A study of Rattus norvegicus with 26 samples.

Results

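Rats that shared a cage were compared with rats that ate the same diet in other cages. The animals were male F344 (Fisher) rats aged 18 months, housed in pairs, and hippocampal RNA was measured with 1 Affymetrix Rat Gene 1.0 ST array per rat. A purified diet, given for 5 to 6 months, held vitamin D3 at 100 IU per kg for the 8 rats of the low group, at 1000 IU for the 9 of the control group and at 10000 IU for the 9 of the high group. The labels name no transgene and no other treatment, and each array held 1 animal. Rats with the same number in the array description within a diet were taken as cage mates. The labels do not call this number a cage number, but each number was held by at most 1 rat with a tail mark and 1 without, which is how the study told mates apart. This gave 14 cages, and in 12 of them, 4 per diet, both rats were measured. Thus 24 of the 26 rats had a measured mate, and the unmarked rat of control cage 2 and the marked rat of high cage 7 had none. The array descriptions share 1 tag and name no batches. Litter, day of killing and the order of RNA extraction were not given in the sources used here, and mates always had neighbouring subject numbers, so cage and any such shared handling cannot be told apart.

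Cage mates live in the same air, light, noise and social company, and are often handled, fed and killed one after the other, so the cage is a common unit of shared variation in rodent studies. Immediate early genes such as Arc and Npas4 are transcribed within minutes of neuronal activity and follow what an animal has just experienced. Clock genes such as Dbp and the Per genes cycle over the day in most tissues, hippocampus included.

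The deposited values are on a log2 scale, and 8485 genes whose probe set had a mean of at least 6.94, the overall probe set median, were tested. The array medians lay between 6.92 and 6.96, and the number of rats limits the precision. Of 12 markers of hippocampal neurons and glia, 11 had a mean above that median, among them the dentate gyrus gene Prox1 (10.67), the pyramidal cell gene Neurod6 (11.94) and the myelin gene Mbp (12.68), while the microglial gene Aif1 (6.91) did not. All 5 measured red blood cell genes lay below it, with a mean per rat between 5.40 and 5.82. The tissue is a block that holds many cell types, and a change in the number of cells of a type and a change of RNA per cell cannot be told apart.

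Mates were more alike than rats of other cages on the same diet. For each gene the diet mean was subtracted, and the resulting profiles of pairs of rats were correlated over all tested genes. The mean Pearson correlation was 0.0026 over the 12 mate pairs and -0.142 over the 88 pairs of rats from other cages, a difference of 0.145. Subtracting the diet means pushes these correlations below 0 by construction, so the difference carries the comparison and not the level. Among all 1157625 ways to pair the rats within diets, a difference this large had an exact one-sided permutation p of 0.000816 (two-sided p = 0.00116). Of the mate pairs, 8 of 12 correlated above 0, against 19 of 88 of the other pairs.

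The size of the likeness was small for a single gene. The median absolute difference between 2 rats over all genes averaged 0.0645 log2 for mates and 0.0712 for rats of other cages. On average 7.93% of genes differed by more than 0.2 log2 between mates and 9.84% between other pairs. Pairs of rats from different cages that were neighbours in subject number had a mean correlation of -0.12 (11 pairs), and the remaining 77 pairs one of -0.145.

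Single cages differed. The correlation between mates was 0.141, 0.0226, -0.121 and -0.0619 in low cages 4, 5, 8 and 9. It was 0.083, -0.0575, 0.0185 and -0.247 in control cages 5, 7, 8 and 10, and 0.0642, 0.0521, 0.0248 and 0.112 in high cages 1, 3, 4 and 10. In 11 of 12 cages the mates were more alike than the 2 rats were with other rats on their diet, and the exception was control cage 10. For 9 of 24 rats the mate was the most similar rat of the diet, and for 15 it was among the 2 most similar.

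**Figure D1:**
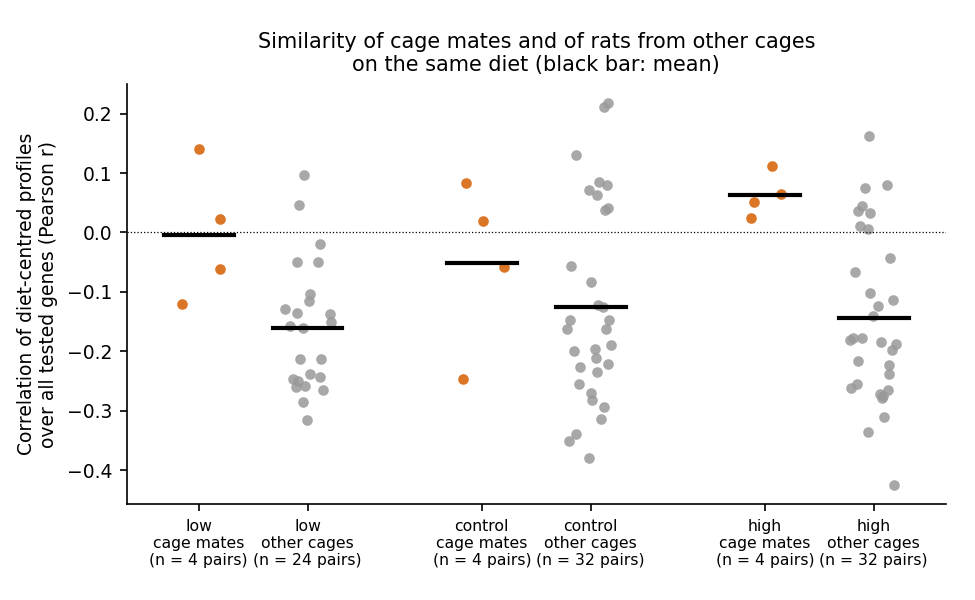
Each point is the Pearson correlation, over 8485 genes, between the diet-centred profiles of 2 rats on the same diet; orange points are cage mates, grey points are rats from different cages, and black bars are means. The 4 mate pairs of the high diet all lie above 0, while most pairs from different cages lie below it, and the control diet has 1 mate pair at -0.247.

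By diet, the difference between mates and others was 0.207 on high, 0.156 on low and 0.0755 on control. The exact one-sided permutation p was 0.019 on high, 0.019 on low and 0.219 on control, where 105 pairings allow no p below 0.00952. Whether the likeness differed between the diets was not tested. Centring an array shifts all its values equally and cannot change a correlation between profiles. Quantile normalization, rank correlation and other gene filters left the pooled difference between 0.093 and 0.223. With the first principal component of the diet-centred values removed it was -0.0018 (exact one-sided permutation p = 0.514). That component held 15.8% of the variance, and mates shared their place on it with an intraclass correlation of 0.677.

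Gene by gene, likeness was measured with the intraclass correlation over the 12 pairs. It is 1 where mates are identical and cages of a diet differ, about 0 where mates are no more alike than rats of other cages, and negative where mates differ more. The median over all tested genes was 0.135, and 64.8% of genes lay above 0. The median rose with expression, from 0.0791 in the 2122 genes with the lowest means to 0.172 in the 2121 with the highest. By diet it was 0.107 on low, 0.0773 on control and 0.236 on high. The array median itself, a property of the whole array, had an intraclass correlation of -0.0638, and the interquartile range of the array values one of 0.222.

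**Figure D2:**
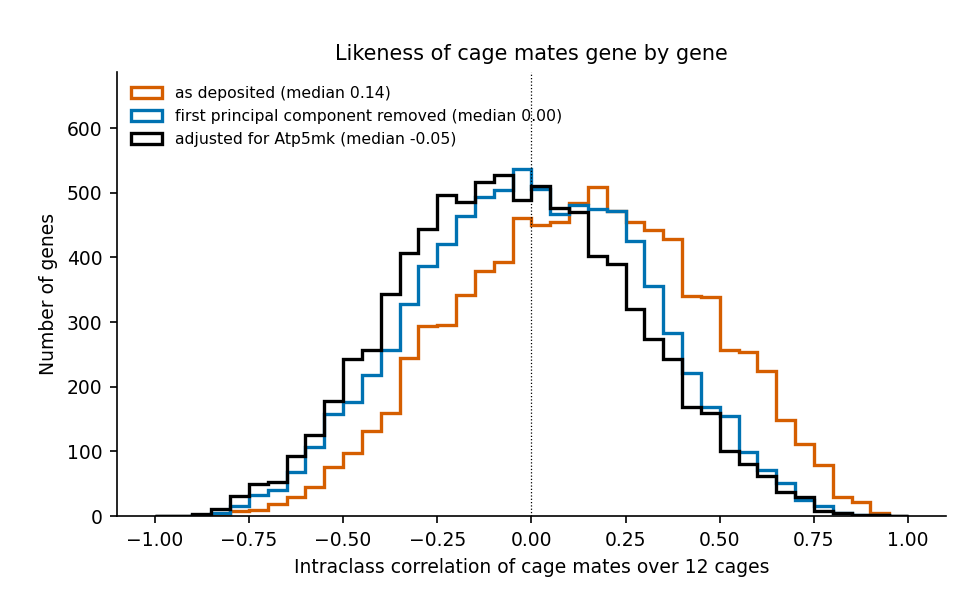
Histogram of the intraclass correlation of cage mates over 12 cages, with the number of genes on the vertical axis, for the values as deposited, after removal of the first principal component and after adjustment for the level of Atp5mk. The deposited values have a median of 0.135, and both adjusted curves sit to the left, with medians of 0.00377 and -0.0517.

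Many genes differed between cages of the same diet by more than mates differed from each other. A moderated F-test in limma of cage within diet, with Benjamini-Hochberg adjustment over all genes, called 591 of 8485 genes (6.97%) at an adjusted p under 0.17, the stricter false discovery rate of the series design. At 0.05 it called 67 genes (0.79%), and 1370 genes had an unadjusted p under 0.05 (16.1%). The called genes had a median intraclass correlation of 0.665, a median SD of 0.0601 log2 between mates and a median SD of 0.0948 between cage means, a description that follows from the call. Just inside the threshold stood Akr7a2, Oscp1 and Nudt2 (adjusted p of 0.168, 0.169 and 0.169), and just outside Haus1, Ankrd6 and Cyp2j4 (0.171, 0.172 and 0.172). Without low cage 4 the count was 343 and without high cage 10 it was 356, and 138 of the 591 genes were called whichever cage was left out.

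In the opposite direction, 0 genes were called as less alike between mates than between cages (lower tail of the F-test without moderation, adjusted p under 0.17). In that tail 171 genes (2.02%) had an unadjusted p under 0.05, and in the upper tail without moderation 1307 had. The lowest intraclass correlations were those of the nuclear export receptor of importin alpha, Cse1l (-0.816), Slc10a7 (-0.807), the oxygen-sensing prolyl hydroxylase Egln3 (-0.803), Armcx3 (-0.781) and the ribosome assembly factor Rsl24d1 (-0.778). A second probe set of Slc10a7 gave 0.039. In high cage 1 the 2 mates had Egln3 values of 9.68 and 9.32, the highest and lowest of that diet, while all cage means lay between 9.39 and 9.53.

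The gene with the smallest p was Atp5mk, which encodes a small membrane subunit of mitochondrial ATP synthase. On the low diet the marked and unmarked rats had 12.10 and 12.03 in cage 4, 11.99 and 12.17 in cage 5, 11.65 and 11.79 in cage 8, and 11.60 and 11.60 in cage 9. On the control diet they had 11.72 and 11.61 in cage 5, 12.14 and 12.05 in cage 7, 12.14 and 12.01 in cage 8, and 11.65 and 11.72 in cage 10. On the high diet they had 12.14 and 12.11 in cage 1, 11.62 and 11.71 in cage 3, 11.76 and 11.68 in cage 4, and 12.13 and 12.13 in cage 10. The values of the 24 rats fell into 2 ranges, 11.60 to 11.79 and 11.99 to 12.17, with a gap of 0.20 against a next largest gap of 0.05. Each range held 12 rats, the 2 mates of 6 whole cages, and each diet had 2 cages in either range. No cage was split between the ranges. The intraclass correlation was 0.927 (adjusted p = 0.000268, SD between mates 0.0672, 12 cages), and a second probe set of the gene gave 0.902. The 2 rats without a measured mate had 11.73 (control) and 11.63 (high).

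Pigp encodes a subunit of the enzyme complex that starts the synthesis of glycosylphosphatidylinositol anchors, and its high cages were the same as those of Atp5mk. On low its marked and unmarked rats had 11.01 and 10.88 in cage 4, 11.01 and 10.93 in cage 5, 10.59 and 10.65 in cage 8, and 10.63 and 10.68 in cage 9. The control diet gave 10.71 and 10.62 in cage 5, 10.99 and 10.91 in cage 7, 11.02 and 10.96 in cage 8, and 10.68 and 10.63 in cage 10. The high diet gave 11.02 and 10.96 in cage 1, 10.61 and 10.70 in cage 3, 10.75 and 10.65 in cage 4, and 11.03 and 10.97 in cage 10. Rats were high in low cages 4 and 5, control cages 7 and 8 and high cages 1 and 10, with no overlap with the other cages of their diet. The intraclass correlation was 0.911 (adjusted p = 0.00137, SD between mates 0.0558).

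Mfsd1, a lysosomal membrane transporter, was low in the cages where Atp5mk was high. Its values were 11.04 and 11.23 in low cage 4, 11.00 and 11.01 in low cage 5, 11.33 and 11.40 in low cage 8, and 11.36 and 11.42 in low cage 9. Control rats had 11.41 and 11.31 in cage 5, 11.10 and 11.10 in cage 7, 11.15 and 11.03 in cage 8, and 11.39 and 11.33 in cage 10. High rats had 10.99 and 11.09 in cage 1, 11.35 and 11.37 in cage 3, 11.40 and 11.39 in cage 4, and 11.04 and 11.06 in cage 10. Here low cages 8 and 9, control cages 5 and 10 and high cages 3 and 4 were high. The intraclass correlation was 0.895 (adjusted p = 0.00257, SD between mates 0.0588), but only 0.308 in the second probe set of Mfsd1.

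Uqcrq, a subunit of respiratory complex III, split the cages as Mfsd1 did. Rats on low had 10.38 and 10.41 in cage 4, 10.43 and 10.33 in cage 5, 10.64 and 10.69 in cage 8, and 10.59 and 10.59 in cage 9. Rats on control had 10.66 and 10.65 in cage 5, 10.25 and 10.46 in cage 7, 10.39 and 10.31 in cage 8, and 10.68 and 10.68 in cage 10. Rats on high had 10.42 and 10.40 in cage 1, 10.67 and 10.66 in cage 3, 10.69 and 10.70 in cage 4, and 10.37 and 10.46 in cage 10. The same cages were high as for Mfsd1, without overlap within a diet, and the widest pair among them was that of low cage 8. The intraclass correlation was 0.883 (adjusted p = 0.00503, SD between mates 0.0563). Both Atp5mk and Uqcrq belong to oxidative phosphorylation, yet 1 was high where the other was low.

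**Figure D3:**
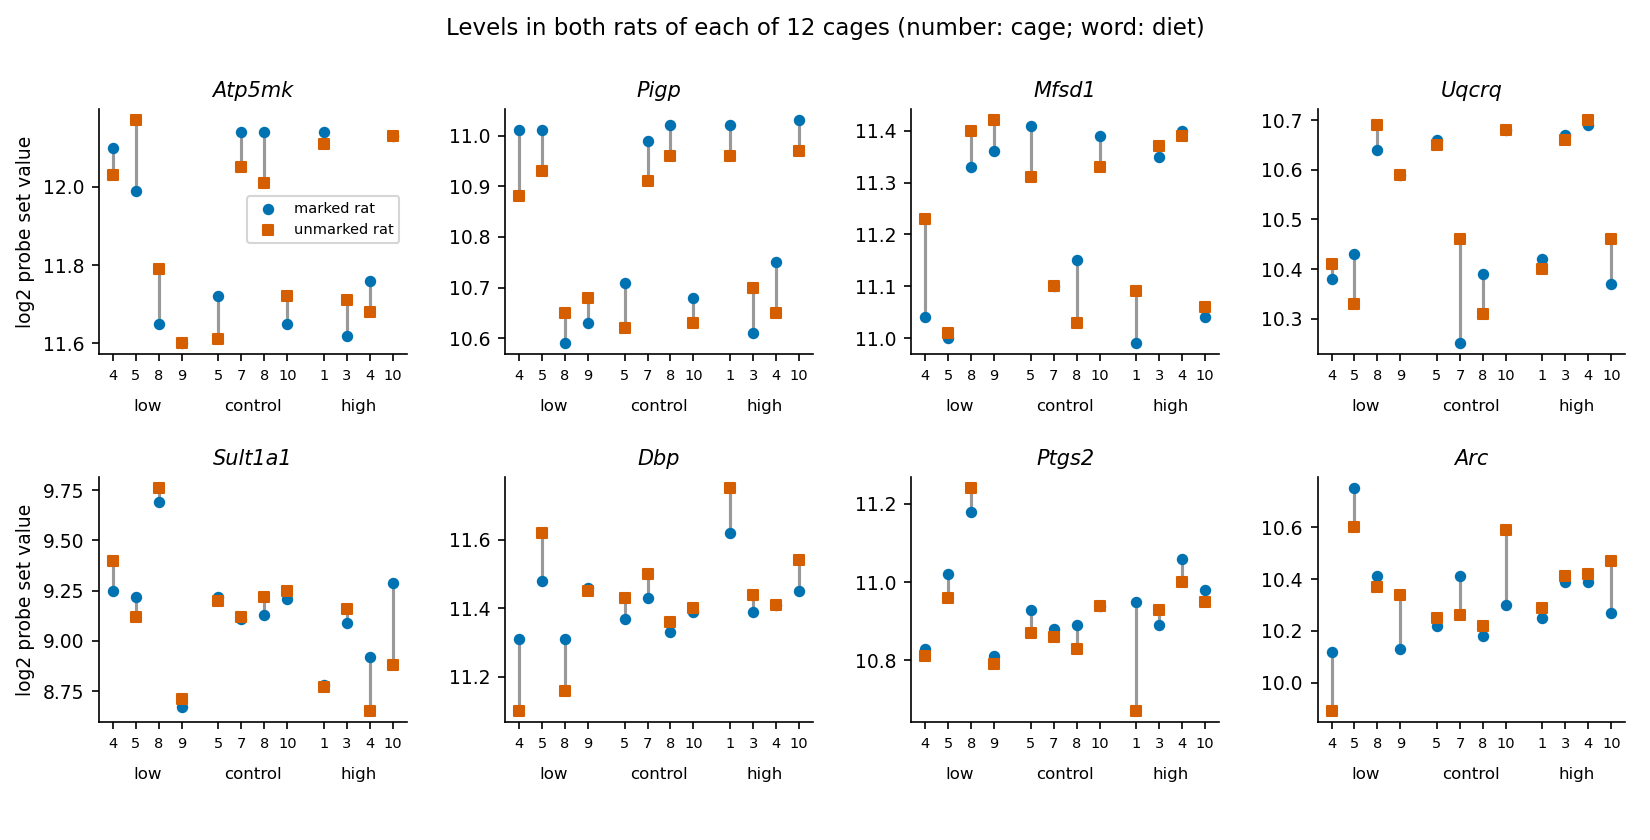
Log2 probe set values of 8 genes in both rats of each of the 12 cages; circles are marked and squares unmarked rats, a grey line joins mates, and the horizontal axis gives the cage number and diet. Atp5mk and Pigp fall into high and low cages with no cage split, Mfsd1 and Uqcrq show the reverse, and Sult1a1, Dbp, Ptgs2 and Arc order the cages differently.

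The 20 genes with the smallest p were Atp5mk, Pigp, Mfsd1, Uqcrq, Sult1a1, Htra1, Arpc5l, Ypel4, Med11, Chchd2l3, Crtc2, Coq7, Fbxo9, Eid1, Mxd4, H2az1, Bicra, Lsm7, Phyhd1 and Plpbp. All 20 were called whichever cage was left out. They include parts of general machinery: Med11 belongs to the Mediator complex of transcription, H2az1 is a histone variant, Bicra a subunit of a chromatin remodelling complex, Lsm7 a component of the splicing machinery and Coq7 an enzyme of ubiquinone synthesis. Their intraclass correlations were 0.82 (Med11), 0.846 (H2az1), 0.832 (Bicra), 0.844 (Lsm7) and 0.829 (Coq7). Arpc5l, a subunit of the actin-branching Arp2/3 complex, had 0.857, and Crtc2, a coactivator of the cAMP-responsive transcription factor CREB, had 0.841. Second probe sets gave lower values for H2az1 (0.554) and Chchd2l3 (0.487).

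The cage means of the 591 called genes, which were picked because they differed between cages, varied in large part along 1 axis. This first axis held 53.6% of their variance and the second 12.9%, which is a share of variance and not of genes. The sign of the first axis was set to match Atp5mk, itself 1 of the called genes. With that sign all 12 cages lay on the same side of 0 as for Atp5mk. When the level of Atp5mk was added to the F-test, a setting chosen after seeing the data, 6 of 8484 genes (0.0707%) were called and 668 (7.87%) had an unadjusted p under 0.05. Of the 591 genes called without it, 255 (43.1%) kept an unadjusted p under 0.05. Atp5mk was picked because mates were alike in it, and this fit kept a mean for each cage beside the covariate. Cage and the level of Atp5mk nearly coincide (intraclass correlation 0.927), so the fit can hardly separate them. The fall in calls therefore cannot be read as a count of genes that share the pattern of Atp5mk. With the first principal component as covariate 385 genes were called (4.54%), of which 149 were among the 591. Among the 20 genes, 10 kept an unadjusted p under 0.05 with Atp5mk in the fit. Atp5mk itself could not be tested in that fit, although it counts among the 20 and the 591.

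Gene length differed between the called genes and all tested genes as a description. Its median in the RefSeq table of assembly GRCr8 was 14.7 kb for the 591 called genes (quartiles 6.82 and 31.4) and 26.2 kb for all tested genes (quartiles 10.9 and 63.7). Their median level was 9.39, against 9.38 for all, and the median GC content of their promoters was 61%, against 61.7%. These are descriptions without a test.

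Sult1a1, a sulfotransferase of phenolic compounds, differed between cages along another order. On low its marked and unmarked rats had 9.25 and 9.40 in cage 4, 9.22 and 9.12 in cage 5, 9.69 and 9.76 in cage 8, and 8.67 and 8.71 in cage 9. On control the 8 rats with a measured mate lay between 9.11 and 9.25. On high they had 8.78 and 8.77 in cage 1, 9.09 and 9.16 in cage 3, 8.92 and 8.65 in cage 4, and 9.29 and 8.88 in cage 10. The means of low cages 8 and 9 differed by 1.03 log2, or 2.05-fold, although both had the same diet, whereas mates differed by a median of 0.072. The intraclass correlation was 0.844 (adjusted p = 0.00503), and it was 0.844 too with Atp5mk regressed out. The F-test with Atp5mk as covariate gave an adjusted p of 0.0633.

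Other genes shared part of the extremes of Sult1a1. The lowest cage was low cage 9 for Sult1a1 and high cage 1 for Htra1 and Phyhd1. The secreted protease gene Htra1 had 11.10 and 11.06 in low cage 8, 10.50 and 10.59 in low cage 9, and 10.28 and 10.43 in high cage 1. Its intraclass correlation was 0.864, and its adjusted p was 0.006 without Atp5mk in the fit and 0.0791 with it. Phyhd1, a dioxygenase of unsettled substrate, had 8.76 and 8.74 in low cage 8, 8.18 and 8.18 in low cage 9, and 8.14 and 8.14 in high cage 1 (intraclass correlation 0.811, adjusted p = 0.0153, and 0.106 with Atp5mk). Low cage 8 was the highest cage for all 3 genes. The intraclass correlations on low and control were 0.974 and 0.54 for Sult1a1, 0.958 and -0.0584 for Htra1, and 0.984 and -0.581 for Phyhd1. On high those of Sult1a1, Htra1 and Phyhd1 were 0.389, 0.807 and 0.605. The other genes called with Atp5mk in the fit were Tmem38b, Zfp575 and Prlhr (adjusted p of 0.0791, 0.105 and 0.106), which were named after their values were seen. Of these, Prlhr, the receptor of prolactin-releasing peptide, was likewise highest in low cage 8 (8.44 and 8.10) and lowest in high cage 1 (7.43 and 7.40).

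Among immediate early genes 6 of 15 tested members were called (40%), beside 6.97% of all genes. An intraclass correlation above 0 was found for 14 of the 15, beside 64.8% of all genes, and the median was 0.45 beside 0.135. Called were Ptgs2, the inducible cyclooxygenase (intraclass correlation 0.76, adjusted p = 0.0374), Arc, a synaptic regulator of glutamate receptor traffic (0.697, 0.05), and the transcription factor genes Nr4a1 (0.623, 0.0868), Egr3 (0.749, 0.0942) and Npas4 (0.45, 0.164), with the phosphatase Dusp6 (0.523, 0.143). Junb (0.46, 0.199) and Bdnf (0.499, 0.223) missed the threshold, and Egr1 (0.193), Homer1 (0.068) and Egr4 (-0.256) had low values. Members of a list share samples and tend to vary jointly, so its count is not a number of independent results.

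Arc differed between the cages of the low diet. There its rats had 10.12 and 9.89 in cage 4, 10.75 and 10.60 in cage 5, 10.41 and 10.37 in cage 8, and 10.13 and 10.34 in cage 9. The means of cages 4 and 5 differed by 0.674 log2, or 1.6-fold. Among rats with a measured mate the values ran from 10.18 to 10.59 on control and from 10.25 to 10.47 on high, and the intraclass correlation within these diets was 0.277 and 0.196, against 0.824 on low. Nr4a1 also had its lowest pair in low cage 4 (9.35 and 9.33) and its highest in low cage 5 (9.78 and 9.91).

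Ptgs2 was highest in low cage 8, with 11.18 and 11.24, and low in low cages 4 (10.83 and 10.81) and 9 (10.81 and 10.79). In 10 of 12 cages the marked rat had the higher value. High cage 1 held the widest pair, 10.95 and 10.67. Npas4, the most variable of the list, ran from 7.01 to 10.55, and the highest rat, in control cage 10, had a mate at 8.74. The calls of this list leaned on single cages: of 12 fits that left out 1 cage, Ptgs2 and Arc were called in 11, Nr4a1 and Egr3 in 10, Dusp6 in 5 and Npas4 in 4. With Atp5mk in the fit none of the 6 was called, and their unadjusted p values were 0.000418 (Ptgs2), 0.000779 (Arc), 0.00319 (Nr4a1), 0.00706 (Egr3), 0.0175 (Dusp6) and 0.0472 (Npas4). In the cage F-test without Atp5mk these had been 0.000255, 0.000416, 0.002, 0.00279, 0.00822 and 0.011.

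Among clock genes 5 of 16 tested members were called (31.2%, beside 6.97% of all genes). An intraclass correlation above 0 was found for 12 of the 16, beside 64.8% of all genes, and the median was 0.284 beside 0.135. The called members were the output transcription factor Dbp (0.715, adjusted p = 0.0547), the nuclear receptors Nr1d1 (0.671, 0.0868) and Nr1d2 (0.682, 0.134), and the period genes Per3 (0.553, 0.155) and Per2 (0.556, 0.159). Not called were the activators Bmal1 (0.275), Clock (0.293) and Npas2 (0.022) and the repressors Cry1 (-0.00162), Cry2 (0.339), Bhlhe40 (0.193) and Bhlhe41 (0.173). Per1, which also answers to neuronal activity and glucocorticoids, had -0.306, and Tef, a relative of Dbp, had -0.725, the lowest of the list.

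Among the 12 cages with both rats, Dbp was lowest in low cages 4 (11.31 and 11.10) and 8 (11.31 and 11.16) and highest in high cage 1 (11.62 and 11.75). Low cage 5 stood at 11.48 and 11.62 and low cage 9 at 11.46 and 11.45, so both rats of these cages lay above all 4 rats of cages 4 and 8. On control the 8 rats with a measured mate lay between 11.33 and 11.50. Nr1d2 was lowest in low cage 4 (10.41 and 10.44) and highest in high cage 1 (10.67 and 10.71), and Nr1d1 was highest in high cages 1 (11.06 and 11.21) and 10 (11.06 and 11.23). Dbp was called in each of the 12 fits without 1 cage, Nr1d1 in 11, Nr1d2 in 8, Per3 in 4 and Per2 in 3. With Atp5mk in the fit the unadjusted p was 0.00168 for Dbp, 0.00261 for Per2, 0.00566 for Nr1d2, 0.0367 for Per3 and 0.0887 for Nr1d1, with no adjusted p under 0.17. In the cage F-test without Atp5mk these unadjusted p values had been 0.0006, 0.0103, 0.00658, 0.00972 and 0.00204. The hour of killing was not given in the sources used here.

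**Figure D4:**
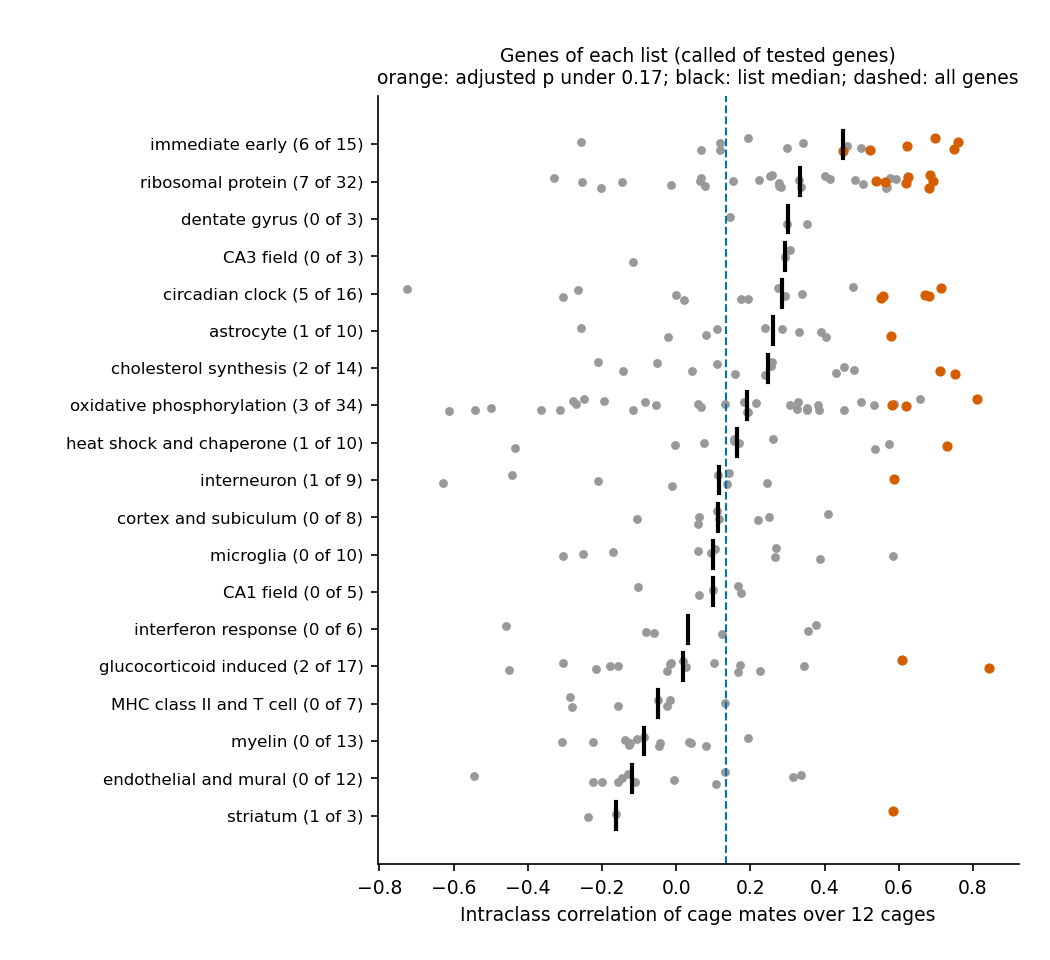
Intraclass correlation of cage mates over 12 cages for each tested gene of the lists with at least 3 tested genes, with called genes (adjusted p under 0.17) in orange, the list median as a black bar and the median of all genes, 0.135, as a dashed line. The immediate early genes have the highest list median, 0.45. The endothelial and myelin lists have medians below 0 and no called gene, where 6.97% of all genes were called.

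The start regions of 2 of these genes are shown because each holds 1 of the 3 motifs searched, with the motif in capitals. Promoters are from RefSeq on GRCr8, 300 bases that end 50 bases after the start, read 5′ to 3′ on the gene's strand. In Per2 (chr9:99496944-99497243, minus strand) the capitals mark TTATGTAA, a site form bound by the Dbp and Tef family. In Ptgs2 (chr13:64713813-64714112, plus strand) they mark CACGTG, the E-box form bound by clock activators.
Per2: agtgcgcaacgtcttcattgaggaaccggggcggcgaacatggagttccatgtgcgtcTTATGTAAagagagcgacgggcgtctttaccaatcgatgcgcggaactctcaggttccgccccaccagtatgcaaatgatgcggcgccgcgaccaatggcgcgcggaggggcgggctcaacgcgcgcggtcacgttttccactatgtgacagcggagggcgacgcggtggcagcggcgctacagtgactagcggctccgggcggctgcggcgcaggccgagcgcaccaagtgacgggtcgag
Ptgs2: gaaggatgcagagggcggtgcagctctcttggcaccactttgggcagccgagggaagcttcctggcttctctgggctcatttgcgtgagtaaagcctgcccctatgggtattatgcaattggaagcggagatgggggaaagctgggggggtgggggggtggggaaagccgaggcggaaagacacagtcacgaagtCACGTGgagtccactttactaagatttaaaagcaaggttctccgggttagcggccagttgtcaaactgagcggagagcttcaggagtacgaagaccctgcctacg
Searched on both strands, CACGTG was found in 6.65% of 27457 promoters, TTATGTAA in 0.881% and the cAMP response element TGACGTCA in 1.91%, and the 3 motifs do not overlap in these windows. Of the 14 clock genes matched to a promoter, Tef, Bhlhe40 and Bhlhe41 held CACGTG, none of them called, and 1 held TTATGTAA. Of 11 immediate early genes 2 held CACGTG (Dusp1 and Ptgs2) and 1 held TGACGTCA (Dusp1). A match is a description of letters, and the promoters of Dbp, Nr1d1, Nr1d2 and Nr4a1 held none of the 3.

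Genes of protein synthesis and of mitochondria were alike between mates to differing degrees. Of 32 ribosomal protein genes 7 were called (21.9%, beside 6.97% of all genes), with a median intraclass correlation of 0.334 beside 0.135 and the highest value in Rpl14 (0.693). After adjustment for Atp5mk the list median was -0.0556 and that of all genes -0.0517. Of 34 further oxidative phosphorylation genes 3 were called (8.82%, near the share of all genes), namely the ATP synthase catalytic subunit Atp5f1b (0.81, adjusted p = 0.118), Ndufb8 (0.62, 0.0986) and Ndufa2 (0.583, 0.0909), while Ndufs3 had -0.612. Ndufb8 and Ndufa2 were named after their values were seen, and had -0.559 and -0.29 after adjustment for Atp5mk. Of 14 cholesterol synthesis genes 2 were called (14.3%, beside 6.97% of all genes): Srebf2, the regulator of the pathway (0.75, 0.0909), and Fdft1, which makes squalene (0.711, 0.118) and was named after its value was seen. Of 10 heat shock genes 1 was called (10%, beside 6.97% of all genes), the mitochondrial chaperonin Hspe1 (0.73, 0.0733). Hspd1, its partner, had -0.435 in the probe set used and 0.314 in a second one.

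In a list of glucocorticoid-induced genes, which respond to stress hormone, 2 of 17 tested members were called (11.8%, beside 6.97% of all genes). They were Sult1a1 and the metallothionein Mt2A (0.608, adjusted p = 0.148), and the list median was 0.0178 beside 0.135. The 17 also counted Nr3c1 (0.344) and Nr3c2 (0.225), which encode the corticosteroid receptors, and Per1, which is in the clock list too. Sgk1 had 0.173, Fkbp5 0.101, Tsc22d3 0.0178 and Klf9 -0.45, with adjusted p values of 0.437, 0.536, 0.592 and 0.926.

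Among markers of cell types and of neighbouring tissue, none was called among 13 myelin, 12 endothelial and mural, 10 microglial, 8 cortex and subiculum, 7 MHC class II and T cell, 6 interferon and 5 CA1 genes. Of all genes 6.97% were called, so 0 of so few is near that share and sets none of these lists apart. Their median intraclass correlations were -0.086, -0.12, 0.0993, 0.113, -0.0492, 0.0328 and 0.0981. Of 10 astrocyte genes 1 was called (10%, beside 6.97% of all genes). It was Gfap (0.578, adjusted p = 0.109), with 11.84 and 11.82 in low cage 9 and 11.52 and 11.28 in low cage 4. Of 9 interneuron genes 1 was called (11.1%), the neuropeptide Cck (0.586, 0.14), and Sst had -0.629. Of 3 tested striatum genes, too few for a share to be read, 1 was called (33.3%). It was Ppp1r1b, a regulator of protein phosphatase in dopamine signalling (0.583, 0.157).

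The choroid plexus marker Ttr varied widely between mates, with an SD of 1.68 log2 and an intraclass correlation of -0.322. In control cage 10, the cage with the least alike mates, its values were 12.91 and 8.49, and in control cage 8 they were 6.69 and 10.25. The mean of the 12 measured choroid plexus genes ran from 6.33 to 7.92 over the rats, and 2 of the 12 genes lay above the median of all probe sets. The part of this tissue in the unlikeness of single pairs was not tested. The mean of the red blood cell genes had an intraclass correlation of 0.546, and its part in the results was not tested either.

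Inside the cages the tail mark and the subject number told mates apart. The marked rat had the lower subject number in every cage with both rats, so mark and subject order cannot be told apart. With cage as a block limma called 0 genes at an adjusted p under 0.17, 499 genes (5.88%) had an unadjusted p under 0.05, and the smallest adjusted p was 0.763. The genes with the smallest p were the vomeronasal receptor gene Vom1r50, with means of 7.40 in marked and 7.55 in unmarked rats (marked rat higher in 2 of 12 cages), and Txndc15, with 8.45 and 8.54 (marked rat higher in 1 of 12). The same threshold called 591 genes for cage.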

How the data were processed

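The authors deposited 1 log2 value for each of 29214 probe sets in each of 26 arrays, with 0 missing. The submitters' processing notes name Partek 6.6 and GCRMA without saying which did what. No further normalization was applied, and no 2 arrays were identical. Per the labels' protocols, RNA was extracted with TRIzol.

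Of the probe sets, 15310 had 1 gene symbol in the array annotation, 323 several and 13581 none. The probe set with the highest mean was kept for each of 14506 genes, and 8485 genes at or above the median were tested. The cage F-test (limma 3.58.1, R 4.3.3) had 9 and 12 degrees of freedom over 24 rats. The intraclass correlation was the difference of the mean squares between and within cages over their sum. Similarity was tested by exact permutation (Python 3.11.15, NumPy 2.4.6). The fit was tested on simulated data.

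The members, lists and tests were chosen with earlier results of these data known. Named were the 20 genes with the smallest cage p, the 5 with the lowest intraclass correlation, 2 for the tail mark, the extremes of each list, and any member of the clock, immediate early, glucocorticoid, choroid plexus, cortex and red blood cell lists; other names were chosen after values were seen. Alternatives covered filters, scaling, similarity measures, thresholds, covariates and each cage left out.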

Additional observations from a re-analysis of the deposited data

Results flagged for a closer look

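For a part of the genes named, 54 groups of 8 or 9 rats (gene and diet) were checked for a rat apart from the others. Of these 2 were marked, where chance marks about 1 in 20. The other named genes were not covered by this check. On the high diet the unmarked rat of cage 1 had a Ptgs2 value of 10.67, while the other 8 rats lay between 10.89 and 11.06 and its mate had 10.95. Also on the high diet the marked rat of cage 10 had 7.00 for the vesicular glutamate transporter Slc17a6, while the others lay between 7.56 and 8.02 and its mate had 7.56.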

How the results depend on the processing

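The excess likeness of mates kept its direction and a one-sided exact permutation p under 0.05 in each alternative of filter, scaling, similarity measure, reference pairs and left-out cage (differences of 0.1255 to 0.1616 without 1 cage), and ended with the first principal component removed (-0.0018) or after adjustment for Atp5mk (-0.0647, two-sided exact permutation p = 0.0813). The count of 591 called genes was 67 at an adjusted p under 0.05, 1377 at 0.31, 385 with the first principal component as covariate, 6 with Atp5mk as covariate and 216 with no intensity filter, and ran from 343 to 680 without 1 cage; a filter that keeps more low genes tests more genes, and the other causes were not tested. Without moderation it was 448, with all 26 rats 474, with quantile normalization 580 and with array centring 494. For the tail mark and for mates less alike, 0 genes were called in every alternative run at 0.17.

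Among the called genes named by the rule, intraclass correlations turned negative with the first principal component removed for Atp5mk (-0.012), Pigp (-0.01), Chchd2l3 (-0.083), Coq7 (-0.081), Fbxo9 (-0.143) and Hspe1 (-0.195). These values were taken after the component was regressed out, whereas the F-test kept a mean for each cage beside it. In the F-test with that component as covariate, Atp5mk, Pigp and Fbxo9 were still called (adjusted p of 0.0377, 0.0479 and 0.14). Chchd2l3, Coq7 and Hspe1 were not (0.309, 0.231 and 0.508). After adjustment for Atp5mk, a setting added after seeing the data, the intraclass correlations of called genes named by the rule were negative for Pigp (-0.146), Mfsd1 (-0.343), Arpc5l (-0.065), Med11 (-0.315), Chchd2l3 (-0.064), Coq7 (-0.367), Fbxo9 (-0.437), H2az1 (-0.388), Lsm7 (-0.241), Gfap (-0.144), Hspe1 (-0.378) and Cck (-0.099). With 2 rats a cage, the spread between mates rests on 12 differences.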

Other observations

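The 2 rats without a measured mate served in the similarity test as rats of other cages and had no pair in the cage F-test. The control rat of cage 2 and the high rat of cage 7 had 10.71 and 10.75 for Nr1d2, where the 24 rats with a mate lay between 10.40 and 10.71. Inside the ranges of the 24 rats, the 2 rats had 11.64 and 11.68 for Dbp (11.10 to 11.75) and 9.10 and 9.10 for Per2 (8.76 to 9.17). The same held for Nr1d1, for which they had 11.02 and 10.99 (10.76 to 11.23). For Bmal1, the activator whose rhythm runs opposite to that of Dbp, they had 8.57 and 8.61, where the other rats lay between 8.60 and 9.02. Other clock genes differed between the 2 rats, with 7.61 and 7.39 for Cry1, 9.36 and 9.49 for Per3 and 10.30 and 10.20 for Tef. These values were picked out after they were seen, and no test was made.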
